A study of Homo sapiens with 3 samples.

Results

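The 40996 contacts described here join a promoter to DNA that lies between genes. They are pairs of HindIII restriction fragments from promoter capture Hi-C (PCHi-C) of hESC-CMs, which are cardiomyocytes grown from WA09 (H9), an established line of human embryonic stem cells. A pair was kept when both fragments lay on 1 chromosome with midpoints at most 1 Mb apart, when the interacting fragment was never itself listed as a promoter fragment, and when its midpoint lay in no protein-coding gene of the human genome GRCh37. Of the 200809 pairs called in any of the 3 biological replicates, 40996 met this rule. Replicate 1 held 26811 of them, replicate 2 held 25828 and replicate 3 held 25132. All replicates were untreated beyond the differentiation with a commercial kit and enrichment in lactate medium, were of 1 cell line and 1 condition, and passed the authors' purity check on MYH7 and TNNT2. PCHi-C gives no expression level, so these cell type markers could not be checked here. With 1 condition no groups were compared, and the spread given is that between the 3 replicates.

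PCHi-C fixes chromatin, joins the ends of fragments that were near one another in the nucleus and captures the joined pieces that carry a promoter. The DNA between genes holds distal enhancers, which can act on a promoter far along the chromosome, and it holds sites of CTCF, a DNA-binding protein that halts the loop-extruding cohesin complex in an orientation-dependent way. Genome annotation often assigns an intergenic element to the gene with the nearest transcript start. The question asked of these contacts was how often the contacted promoter was a different one.

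Each contact carries a CHiCAGO score, which grows with the excess of its reads over a distance-dependent background, and no score under 5 was listed. A pair that is missing from a replicate was thus not shown to be absent. Contacts share promoter fragments and interacting fragments and are not independent, so the 95% Wilson intervals given on shares cover counting error only. The interacting fragment of a contact is called its promoter-interacting region (PIR).

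The 6 contacts printed here show the distances, the skipped genes and the sequence that the results below turn on. They are the contacts with the highest mean score among those that were called in all 3 replicates, skipped the nearest protein-coding start and had exactly 1 match to the CTCF core consensus in the PIR, with 1 contact per promoter. They were chosen after their values were seen. Capitals mark the match, and every sequence is GRCh37 on the strand of the match. OSR1 encodes a zinc-finger transcription factor of early mesoderm, and its PIR match lay in chr2:18701915-18702034 on the + strand, 854 kb away. TIPARP encodes a mono-ADP-ribosyltransferase, and its match lay in chr3:156799629-156799748 on the - strand. BCL2 encodes an inhibitor of apoptosis, and its match lay in chr18:60683616-60683735 on the + strand. SDC3 encodes the heparan sulphate proteoglycan syndecan-3, and its match lay in chr1:31274695-31274814 on the + strand. DLX3 encodes a homeobox transcription factor, and its match lay in chr17:47938596-47938715 on the + strand. A single promoter fragment holds starts of both ISG20L2 and METTL25B, and its match lay in chr1:156860033-156860152 on the - strand. A match on the + strand points to higher coordinates, and each of these 6 matches pointed at its promoter.
OSR1: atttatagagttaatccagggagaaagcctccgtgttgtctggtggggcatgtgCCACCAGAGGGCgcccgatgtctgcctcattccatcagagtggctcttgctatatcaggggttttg
TIPARP: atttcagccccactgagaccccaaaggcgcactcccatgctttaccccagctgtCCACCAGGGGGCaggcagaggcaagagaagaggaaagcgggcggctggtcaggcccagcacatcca
BCL2: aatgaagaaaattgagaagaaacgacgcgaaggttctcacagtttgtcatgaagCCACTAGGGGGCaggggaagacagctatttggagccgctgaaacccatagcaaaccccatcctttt
SDC3: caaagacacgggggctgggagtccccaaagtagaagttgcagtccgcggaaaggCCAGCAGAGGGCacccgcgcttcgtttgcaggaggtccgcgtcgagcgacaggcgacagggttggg
DLX3: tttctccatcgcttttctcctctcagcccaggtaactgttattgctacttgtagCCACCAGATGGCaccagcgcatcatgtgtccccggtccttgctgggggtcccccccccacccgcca
ISG20L2 and METTL25B: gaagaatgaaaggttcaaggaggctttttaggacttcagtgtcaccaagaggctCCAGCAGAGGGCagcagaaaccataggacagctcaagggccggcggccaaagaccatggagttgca

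The OSR1 contact scored 34.57, 34.16 and 80.73 in replicates 1, 2 and 3, a mean of 49.8 ± 26.8 (SD, n = 3), so its rank rested largely on replicate 3. The start nearest to this PIR was that of RDH14, 40.0 kb away, and 3 protein-coding genes lay between PIR and promoter. The TIPARP contact scored 52.32, 33.93 and 43.73, with the start of CCNL1 at 77.8 kb and TIPARP at 410 kb. The BCL2 contact scored 47.51, 34.74 and 33.53, with PHLPP1 at 113 kb and BCL2 at 304 kb. The SDC3 contact scored 36.42, 27.08 and 32.38 and was the shortest of the 6 at 107 kb, with LAPTM5 at 43.99 kb. The DLX3 contact scored between 29.27 and 30.77 in the 3 replicates, with TAC4 at 10.2 kb and DLX3 at 134 kb. The ISG20L2 and METTL25B contact scored between 26.22 and 31.06 and passed 6 protein-coding genes, and its nearest start was that of PEAR1, at 3.61 kb.

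Contacts were taken by score and by the number of genes they passed. The ADAMTS8 contact had the highest mean score of all, with 73.52, 66.25 and 59.02 in the 3 replicates (66.3 ± 7.25, SD). ADAMTS8 encodes a secreted metalloprotease, and its PIR lay 429 kb away, with SNX19 as the nearest gene at 33.2 kb. The GADD45G contact came next at 81.02, 79.95 and 33.69 (64.9 ± 27.0, SD, n = 3). GADD45G encodes a stress-response protein, and no protein-coding gene was passed over its 644 kb, yet the start of DIRAS2 was nearer to the PIR at 542 kb. Of the other 2 of the 5 highest besides OSR1, neither promoter fragment held a protein-coding start. They carried RNU6-842P (mean score 52.5) and ENSG00000255438 (mean score 50.7), and their PIRs were nearest to DLC1 and PREX1.

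The 5 contacts that passed the most genes all crossed the type I keratin cluster of chromosome 17, which encodes the intermediate filament proteins of epithelia. The KRT28 contact passed 56 protein-coding genes over 863 kb, scored 17.28, 15.74 and 20.58, and its PIR lay 25.6 kb from the start of EIF1, which encodes a translation initiation factor. The EIF1 promoter in turn contacted a PIR 874 kb away, 6.75 kb from the start of KRT10, and also passed 56 genes. That PIR directly adjoins the KRT10 promoter fragment, and no contact between neighbouring fragments is in the set. KRT10, KRT12 and KRT20 contacted the same PIR, which was nearest to KRT17 at 30.8 kb, and passed 55, 54 and 53 genes. Their mean scores were 8.58 ± 1.90, 9.57 ± 3.50 and 13.6 ± 1.05 (SD, n = 3). These 5 contacts were called in every replicate.

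The sequences of 3 of these PIRs follow, because they show strong or far-reaching contacts without a match to the CTCF core consensus. The first bases from the HindIII site are given on the + strand, with the rest of the cut site in capitals. They are chr11:130729394-130729493 for ADAMTS8, chr9:92862617-92862716 for GADD45G, and chr17:39810458-39810557 for the PIR shared by KRT10, KRT12 and KRT20. The PIRs of EIF1 and ENSG00000255438 had no match either.
ADAMTS8: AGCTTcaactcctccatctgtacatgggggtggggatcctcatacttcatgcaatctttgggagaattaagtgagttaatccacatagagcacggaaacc
GADD45G: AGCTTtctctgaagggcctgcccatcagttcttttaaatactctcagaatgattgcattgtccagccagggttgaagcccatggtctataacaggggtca
KRT10, KRT12 and KRT20: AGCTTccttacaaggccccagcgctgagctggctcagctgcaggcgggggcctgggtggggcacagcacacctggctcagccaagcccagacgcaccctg

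The 40996 contacts came from 24414 PIRs and 8476 promoter fragments, 44.4% of all 19075 promoter fragments with a call. A promoter fragment had a median of 3 such contacts and at most 96, and 33.2% had 1. In turn, 64.8% of PIRs had 1 promoter fragment and 35.2% had at least 2. The midpoint distance had a median of 422 kb in the union, with quartiles of 262 and 634 kb, and of 407 ± 2.71 kb (SD, n = 3) within a replicate. PIRs lay upstream of their promoter in 51.7% of contacts for which a side could be given. Neighbouring fragments were often called together: in 64.5% of contacts the next restriction fragment was called for the same promoter.

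The PIRs were checked against the annotation. No base touched a protein-coding gene in 39342 of the 40996 contacts. The midpoint lay in a long non-coding RNA gene in 27.3% and in no gene of any type in 70.6%. Intergenic fragments that were called were shorter than the 335518 that were not, with a median of 1977 against 2469 bp. They were richer in GC, 41.5% against 38.9%, and lay nearer to a protein-coding start, 48.4 against 139 kb.

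All 3 replicates called 14098 contacts (34.4%, interval 33.9 to 34.9), 2 replicates called 8579 and 1 replicate called 18319. Within a replicate, 54.4% ± 1.76 (SD, n = 3) of its contacts were called in the others too. The contacts in all 3 replicates were shorter, with a median of 382 kb.

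The nearest start was skipped by almost every contact. A contact skips when the protein-coding transcript start nearest to the PIR midpoint is not on the contacted promoter fragment. This could be scored for the 28909 contacts whose promoter fragment holds a protein-coding start. Of these, 27504 skipped and 1405 held the nearest start, a skipped share of 95.1% (interval 94.9 to 95.4). The share was 95.04% in replicate 1, 94.81% in replicate 2 and 95.20% in replicate 3 (95.02% ± 0.201, SD). Counting any start of the contacted gene as held, whether or not it is on the promoter fragment, the share was 93.0%, with 92.7% ± 0.270 (SD, n = 3) over replicates.

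In the skipping contacts the nearest start lay a median of 32.4 kb from the PIR, with quartiles of 11.8 and 84.8 kb, while the contacted promoter lay 411 kb away. Contacts that held the nearest start spanned a median of 290 kb. The skipped start lay between PIR and promoter in 36.1% of skipping contacts and on the far side of the PIR or within it in the others. In 24.6% of skipping contacts no gene was passed on the way to the promoter.

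**Figure D1:**
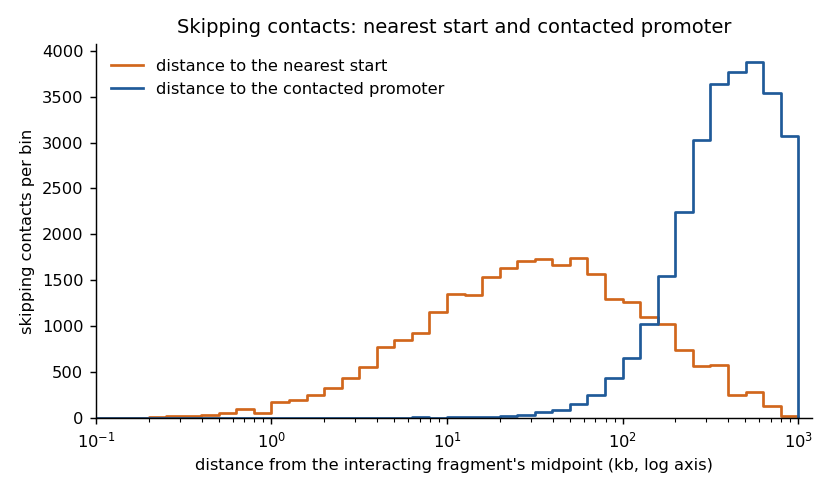
Number of skipping contacts (y axis, per bin of equal width on the log axis) by distance in kb from the PIR midpoint to the nearest protein-coding start (orange) and to the contacted promoter fragment (blue), union of 3 replicates. The nearest starts centre on a median of 32.4 kb and the contacted promoters on 411 kb, and the curves overlap between about 50 and 1000 kb.

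Protein-coding genes were then ranked by distance from the PIR. The contacted gene was placed by its nearest start on the promoter fragment, and every other gene by its nearest start anywhere. A contacted gene with a nearer start off the promoter fragment can thus rank lower than by its own nearest start. The contacted gene had a median rank of 6. It had rank 1 in 6.00% of contacts, rank 2 in 10.1%, 3 to 5 in 29.4%, 6 to 10 in 28.8% and beyond 10 in 25.7%. A contact passed a median of 1 protein-coding gene and an upper quartile of 4. No gene was passed in 28.2% of contacts and 10 or more in 8.84%. Between replicates the SD of each of these shares was at most 0.247 percentage points, smaller than the difference between any of these rank classes.

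**Figure D2:**
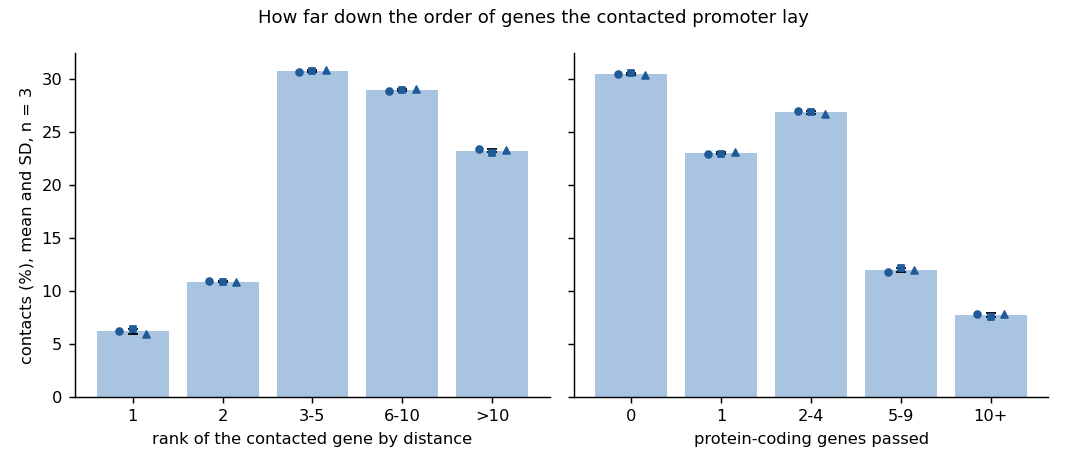
Share of contacts (%) by rank of the contacted gene among protein-coding genes ordered by distance from the PIR (left) and by number of protein-coding genes passed (right), with bars for the mean of 3 replicates, error bars for the SD and points for each replicate. The contacted gene most often ranked 3 to 5 or 6 to 10, while passing 0 genes was the most frequent count.

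The place of the skipped start decides whether a call with it was possible. Of the 27504 skipping contacts, 27.0% skipped a start on a fragment that was a promoter fragment in no call, which may not have been captured. A further 8.95% skipped a start on a promoter fragment beside the PIR, and no contact between neighbouring fragments is in the set. In 1.09% the skipped start was on the PIR itself. For the rest, the promoter fragment with the nearest start had calls, but in 61.2% of skipping contacts not with this PIR, and in 1.72% with this PIR too. Where a call with the nearest start was possible, it was thus made beside the skipping contact in 473 of 17313 contacts (2.73%, interval 2.4995 to 2.99). For scale, 0.551% of all intergenic pairs within 1 Mb that held the nearest start were called in at least 1 replicate. The 2 shares are over unlike sets, and the difference between them was not tested. Of the 19394 PIRs of promoters with a protein-coding start, 92.8% were never called with the nearest one. With starts restricted to promoter fragments with calls, the skipped share was 91.5%.

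Genes that were skipped most often by contacts in all 3 replicates, while they had a promoter fragment of their own with calls, lay in a few regions. H2AC12, a histone H2A gene, was skipped by 74 contacts of 13 PIRs, each with a promoter fragment that holds a start of another histone gene, 609 to 930 kb away. Many histone genes resemble others of their own family, and the part of shared reads in these calls was not tested. CCNL1, which encodes cyclin L1, was skipped by 54 contacts of 24 PIRs, of which 24 went to TIPARP and 22 to SSR3. HMCN1, which encodes the extracellular matrix protein hemicentin-1, was skipped by 43 contacts, 28 of them with IVNS1ABP. ZNF648 was skipped by 41 contacts. SMUG1, which encodes a uracil-DNA glycosylase, was skipped by 40 contacts of 9 PIRs, most of them with promoters of the HOXC cluster. None of these PIRs was called with the skipped gene's own start.

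A skipped share near 100% must be read against pairs that were not called, since a distant promoter is seldom the nearest. All 2892616 pairs of a promoter fragment with a protein-coding start and an intergenic fragment within 1 Mb were therefore listed, and 0.999% of them were called in at least 1 replicate and 0.353% in all 3. Of the 255064 pairs that held the nearest start, 0.551% were called. Of the 2637552 pairs that skipped it, 1.04% were called.

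The difference depended on distance. Up to 50 kb, 59.6% of called pairs skipped against 36.5% of pairs not called. From 50 to 100 kb the shares were 90.6% against 68.1%, and from 100 to 250 kb 93.6% against 84.1%. From 250 to 500 kb they were 96.7% against 92.9%. From 500 to 1000 kb the order turned, with 96.2% of called pairs and 97.6% of the others skipping. In each class all 3 replicates lay on the same side of the pairs not called, with SDs of at most 0.613 percentage points.

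Over the distances of the called pairs, the called share was 3.89 percentage points higher in the union and 4.09 ± 0.166 (SD, n = 3) over the replicates. The exact two-sided permutation of signs, against the same pairs not called for every replicate, gave p = 0.25, the smallest that 3 replicates allow. At a given distance a pair skips when some other start is nearer to the PIR, and called fragments did lie nearer to starts (48.4 against 139 kb). Whether the position of the called fragments near genes accounts for the whole difference was not tested.

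**Figure D3:**
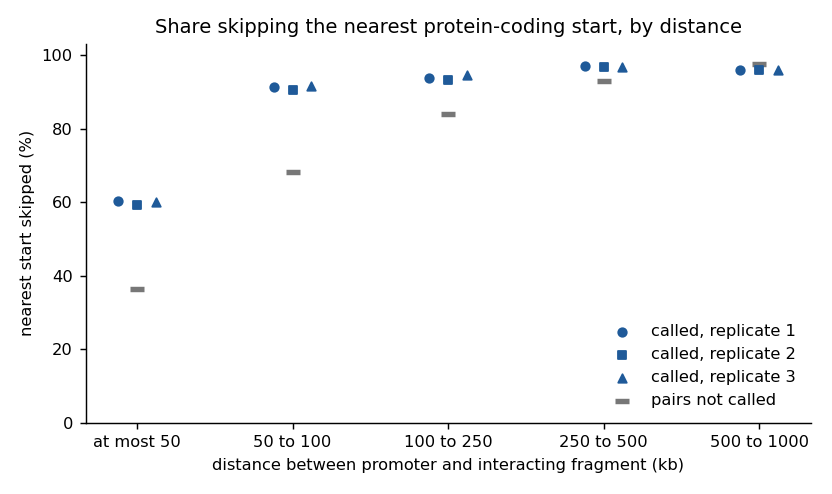
Share of pairs (%) that skip the nearest protein-coding start by midpoint distance in kb, for the called contacts of each replicate (blue points) and for all pairs not called (grey dash). The replicates lie above the pairs not called up to 500 kb, by 23.4 percentage points on average in the shortest class, and below them from 500 to 1000 kb.

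The number of replicates and the score moved the skipped share little. It was 95.4% for contacts called in 1 replicate (interval 95.04 to 95.77), 95.1% in 2 and 94.8% in all 3 (interval 94.4 to 95.2). Among contacts in all 3 replicates it was 93.7% for mean scores from 5 to 7 and 96.1% for the 380 contacts of mean score 20 or more, whose median distances were 313 and 484 kb. Chromosomes differed more. The lowest share was 86.9% on chromosome 13, which has 2.80 protein-coding genes per Mb, and the highest was 99.3% on chromosome 16, with 9.53 genes per Mb. Chromosome 20 had the next lowest share, 89.4% of 595 contacts, at 8.68 genes per Mb. The single gene JAG1 gave 50 of these 595 contacts, and only 9 of the 50 skipped. The share of chromosome 20 without JAG1 was not computed. Chromosome 18 had 94.9% at 3.41 genes per Mb. Chromosome 19, the densest at 25.03 genes per Mb, had 98.3% and a median rank of 18 for the contacted gene.

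Contacts whose PIR lay inside the body of a gene other than the contacted one served for comparison, 50643 in number. They skipped in 99.4% of cases, so that the intergenic share was lower by 4.23 percentage points in the union, with differences of -4.24, -4.50 and -4.12 in the replicates. PIRs of that class lie in another gene by definition, which often places a start of that gene nearby, so this difference is given as a description. In each of the 5 distance classes it was lower, with differences from -24.0 points up to 50 kb to -3.02 points between 250 and 500 kb. Intergenic contacts were longer, by 72.5 ± 0.799 kb in the median (SD, n = 3), and were called in all 3 replicates more often, by 3.12 ± 0.327 percentage points. Both of the latter differences had the same sign in all replicates, each with an exact two-sided paired permutation p of 0.25. Of the 7026 contacts of promoters with their own gene's body, 88.8% skipped the nearest start. This is counted on starts, so another start of the same gene, off the promoter fragment, counts as skipped. The share at gene level was not computed for this class.

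Genes of the heart were described through 5 lists of known genes. Intergenic contacts in all 3 replicates were more frequent in each list than over all 14908 protein-coding genes with a promoter fragment, of which 21.0% had one. They were found for 13 of 19 cardiac transcription factors (68.4%), 8 of 14 genes of calcium handling and ion channels (57.1%), 10 of 19 signalling ligands and receptors (52.6%) and 6 of 16 contractile protein genes (37.5%). Genes of other lineages and pluripotency had them as well, in 4 of 9 cases (44.4%). The nearest start was skipped by 78.0% of the 241 contacts of the cardiac transcription factors and by 69.96% of the 223 contacts of the signalling genes. These are below the 95.6% of all genes, while the share was 98.9% for calcium handling and ion channels, 91.4% for other lineages and 86.5% for contractile proteins. JAG1 gave 50 of the 223 signalling contacts, and without it 147 of 173 skipped (85.0%). HAND2 gave 81 of the 241 contacts of the transcription factors, and without it 78.1% skipped.

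HAND2, a basic helix-loop-helix factor of the right ventricle, had 81 intergenic contacts, with 64, 73 and 44 in replicates 1, 2 and 3 and 41 in all of them. All 41 lay on the side of higher coordinates, 208 to 634 kb away, and 31 skipped the nearest start, which was that of FBXO8. The strongest scored 30.94, 34.61 and 19.98. TBX20, a T-box factor of the chambers, had 11 contacts in all replicates, 6 of them skipping. GATA4, a zinc-finger factor of early heart development, had 11 with 9 skipping, and ISL1, a LIM homeobox factor of the second heart field, had 10 with 8 skipping. NKX2-5 had 2 contacts, and none in all 3 replicates.

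Among the contractile genes, TPM1 (tropomyosin) had 11 contacts in all replicates with 8 skipping, and ACTC1 (cardiac actin) had 10, all skipping. MYH6 and MYH7, the neighbouring genes of the cardiac myosin heavy chains, contacted PIRs beside each other's start. The strongest MYH6 contact scored 24.21, 22.68 and 17.58 over 43.6 kb, and the start nearest to its PIR was that of MYH7, at 9.11 kb. The strongest MYH7 contact scored 13.19, 12.56 and 12.14 over 26.2 kb, and its nearest start was that of MYH6, at 1.75 kb. This PIR directly adjoins the MYH6 promoter fragment, so a call with the nearest start could not be in the set. Of these genes MYH6 had 10 contacts in all replicates, all skipping, and MYH7 had 7 with 5 skipping. TTN and TNNT2 had 1 intergenic contact each, in 1 replicate.

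Of the calcium handling and ion channel genes, GJA1, which encodes connexin 43 of ventricular gap junctions, had 47 contacts, with 37, 34 and 43 in the replicates. All 30 that were called in every replicate skipped the nearest start, over 406 to 758 kb. GJA5, which encodes connexin 40, had 9 with 8 skipping, and CASQ2, which encodes the calcium-storing protein calsequestrin 2, had 8, all skipping and all between 624 and 635 kb away. KCNJ2, an inward rectifier channel gene outside the 4 with the most contacts, had 6, all skipping.

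The signalling genes differed among themselves. JAG1, which encodes a Notch ligand, had 50 contacts with 41, 38 and 42 in the replicates. Of the 33 in all replicates only 2 skipped, over distances of 491 to 868 kb, so that JAG1 itself had the nearest start for the other contacts. EDNRA, the endothelin A receptor gene, had 23 in all replicates, over 300 to 377 kb, and every one skipped the nearest start. Its strongest contact scored 27.00, 27.60 and 26.43, with TTC29 nearest to the PIR at 215 kb and EDNRA at 321 kb. VEGFA, an angiogenic growth factor gene, had 21 with 14 skipping, and EDN1, which encodes the ligand endothelin-1, had 9, all skipping.

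In the list of other lineages, SOX2, a pluripotency and neural factor gene, had 23 contacts in all replicates with 19 skipping, over 518 to 967 kb. COL1A1, a collagen gene of fibroblasts, had 4, all of them skipping. SOX1 had 1. POU5F1, NANOG, FOXA2, TBXT and PECAM1 of this list, MEF2A, CACNA1C and WNT2 of the others, had no promoter fragment with a call and were not analysed here.

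**Figure D4:**
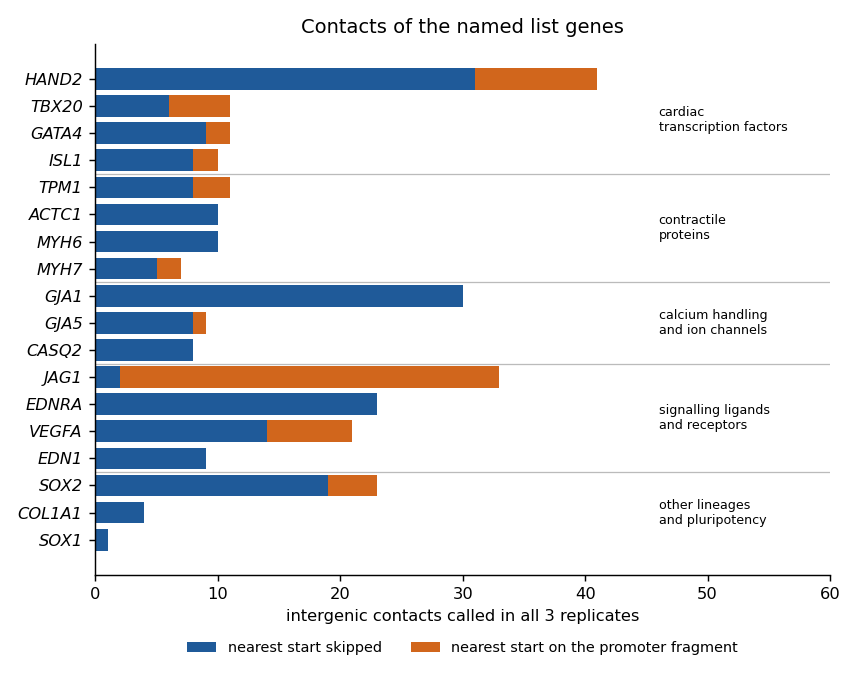
Number of intergenic contacts called in all 3 replicates (x axis) for the named genes with the most in each of 5 lists, divided into contacts that skipped the nearest protein-coding start (blue) and contacts whose promoter fragment held it (orange). HAND2 has the most, 41, and JAG1 is the gene whose contacts mostly held the nearest start, 31 of 33.

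The promoter fragments with the most contacts in all replicates often reached to 1 side in a block. JADE1, which encodes a subunit of a histone acetyltransferase complex, had 54, with 65, 67 and 64 called in the single replicates. All lay on the side of lower coordinates, 174 to 587 kb away, and 38 of them skipped the nearest start, which was that of PGRMC2. EN1, a homeobox gene of the midbrain, had 48, all on the lower side and all nearest to CCDC93 or INSIG2. OSR1 had 48, of which 1 lay on the higher side, and the nearest genes were NT5C1B, RDH14 and TTC32. FGFR2, a fibroblast growth factor receptor gene, had 46, all on the lower side and all skipping on the level of starts, although the nearest gene was WDR11 for some and FGFR2 itself, through another start, for others. HAND2 was the fifth.

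The PIR with the most promoter fragments in all replicates was chr16:31878285-31879802, with 18 promoter fragments at 340 to 911 kb. Its nearest gene was the zinc-finger gene ZNF267, at 6.08 kb, and it was called with none of that gene's starts. Its partners included SETD1A, VKORC1 and PYCARD, and mean scores ranged from 6.75 to 26.9. The next 2 were neighbouring PIRs in the histone gene cluster of chromosome 6, with 18 and 17 promoter fragments, which were mainly those of other histone genes 664 to 959 kb away. Their nearest gene, H4C9, was not among them. Its start lay between the 2 PIRs, 2.60 and 0.776 kb from their midpoints. No contact between neighbouring fragments is in the set, and whether a call with H4C9 was possible was not tested.

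The rule that chose the 40996 contacts used no sequence. Motifs were searched on both strands in 2000-bp windows centred on the PIRs and on intergenic fragments that were never called. The CTCF core consensus, 12 letters with degenerate positions, was found in 3.31% of 9973 windows of PIRs called in all 3 replicates (interval 2.98 to 3.68) and in 0.532% of 335494 windows never called (interval 0.508 to 0.558), a ratio of 6.22. It was found in 2.45% of the 24411 windows of PIRs called in any replicate. The ratio was smaller for a looser consensus with more open positions, at 2.26 (9.60% in all 3 replicates against 4.24%). The T-box motif AGGTGTGA was found in 18.7% against 13.8%. The GATA motif AGATAA was found in 74.5% against 79.6%, the MEF2 consensus in 39.1% against 43.7%, and the TEAD motif ACATTCCA in 10.1% against 10.5%. The windows had a median GC of 42.0% against 38.9%. The part of GC content in these differences was not tested.

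The CTCF consensus is not a palindrome, so a match has a direction along the chromosome. In the 1530 contacts whose PIR had exactly 1 match, it pointed at the promoter in 1264 (82.6%, interval 80.6 to 84.4). The 6 contacts printed at the start, chosen for a match and a high score, are among them. The share was 84.5%, 84.9% and 83.9% in replicates 1, 2 and 3 (84.4% ± 0.467, SD). Among 44288 pairs not called it was 49.2% (interval 48.8 to 49.7). All 3 replicates lay above it, by 35.2 percentage points on average. The same value was set against each replicate, so the test was not paired (exact two-sided permutation of signs, p = 0.25, the smallest that 3 replicates allow). Both sides of this comparison held only PIRs with exactly 1 match. The pairs not called had only promoter fragments with a protein-coding start, while the contacts included promoter fragments without one.

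The share rose with the number of replicates, from 77.8% (interval 74.3 to 81.0) in 1 replicate to 82.6% in 2 and 87.1% (interval 84.3 to 89.5) in all 3. Among the 37 contacts in all 3 replicates with a mean score of 20 or more, every match pointed at the promoter (interval 90.6 to 100). It varied little with distance, between 80.9% and 83.2% in the classes above 50 kb. Contacts that skipped the nearest start (82.7% of 1122) and the 38 that held it (81.6%, interval 66.6 to 90.8) were not distinguishable. In 119 contacts the promoter fragment had exactly 1 match as well. The matches faced each other in 63 of them (52.9%, interval 44.02 to 61.7) and faced away from each other in 4 (3.36%). In 30 only the PIR match pointed at the promoter, and in 22 only the promoter match pointed at the PIR. These 4 arrangements were not counted in pairs not called, so the shares have no background here.

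**Figure D5:**
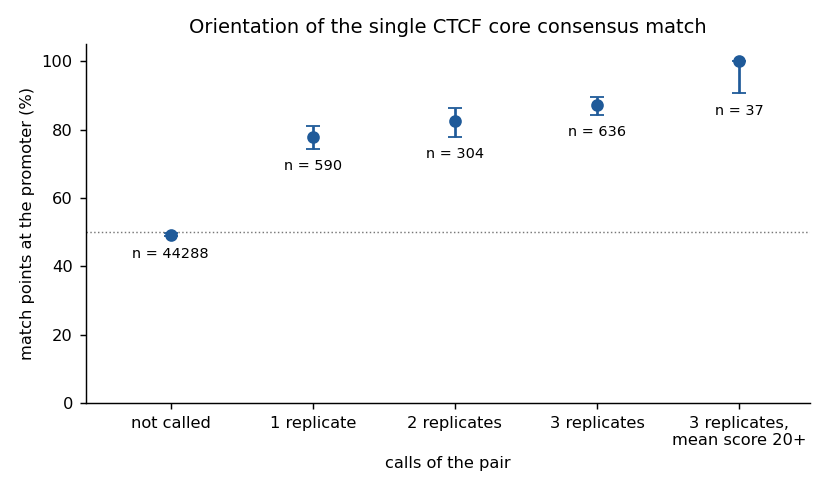
Share of pairs (%) whose single CTCF core consensus match in the PIR points at the promoter, for pairs not called and for contacts called in 1, 2 or 3 replicates and in 3 replicates with a mean score of at least 20, with 95% Wilson intervals and the number of pairs below each. The pairs not called lie at 49.2%, beside the dotted line at 50%, and the contacts rise from 77.8% to 100%.

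The 12087 contacts whose promoter fragment held no protein-coding start could not be scored in the same way. A long non-coding RNA start was on the promoter fragment in 44.9% of them. They were longer than the others, with a median of 461 against 407 kb.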

How the data were processed

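PCHi-C of hESC-CMs was analysed from the CHiCAGO scores that the authors deposited for 3 biological replicates, with the calls on merged replicates as an alternative. Per the labels and the methods, HiCUP mapped the reads to GRCh37 and CHiCAGO scored each pair of fragments against its background. Scores start at 5, and read counts were not analysed here. Fragments were matched to HindIII sites of GRCh37 (32890 of 32890 matched), and genes came from GENCODE v44 lifted to GRCh37. Fragments listed first in any call stood for the captured ones. Pairs not called were all pairs that met the same rule and whose promoter fragment held a protein-coding start. Their interacting fragments had 150 to 40000 bp and did not neighbour the promoter fragment. The list of all such pairs held 28907 of the 28909 scored contacts. Genes passed were counted by their most 5-prime start.

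The contacts, gene lists and tests were chosen with earlier results of these data known. Named were the 4 genes per list, 5 promoter fragments and 3 PIRs with the most contacts, the 5 contacts of highest mean score, the 5 that passed the most genes, and the 5 genes skipped most, all over contacts in all 3 replicates. The 6 contacts with a CTCF match, NKX2-5, TTN, TNNT2 and KCNJ2 were chosen after their values were seen. Some items that the rule names are not reported here. Replicates were compared by exact permutation of signs. On simulated data a known skipped share of 80.0% of 5000 contacts was recovered as 80.0%. Alternatives were other score limits, the merged calls, each replicate left out, and other definitions of intergenic fragments, starts and the CTCF consensus. Leaving out the gene with the most contacts of each list was added after seeing the data. Python 3.11.15, numpy 2.4.6, pandas 2.3.3, scipy 1.17.1 and matplotlib 3.10.9 were used.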

Additional observations from a re-analysis of the deposited data

How the results depend on the processing

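The differences from pairs not called and from contacts inside another gene kept their sign under every alternative run. The shares, the number of contacts and the median distance have no direction. Of their alternative values, 38 moved, which for a share or the median meant by at least the SD between replicates. The share of contacts that skipped the nearest start, 95.1%, was 95.6% for scores of at least 7, 95.8% for scores of at least 10, 93.9% in the merged calls, 94.8% for contacts in all 3 replicates, 95.9% for PIRs in no gene of any type and 96.6% with all promoter fragments included. It was 91.5% with starts on promoter fragments of the calls only, 93.0% at gene level, 93.5% with the most 5-prime start of each gene, 92.8% with each PIR counted once, 95.4% with neighbouring PIRs merged and 96.4% as a mean over promoter fragments. Without 1 replicate it was between 94.99% and 95.2%. The number of contacts fell to 17205 at scores of at least 7 and to 6581 at scores of at least 10, and was between 34165 and 35465 without 1 replicate.

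The share called in all 3 replicates was 38.3% and 40.5% at the higher score limits and 29.7% of the merged calls. With 1 replicate left out, between 48.2% and 49.2% were called in both others, a wider criterion by construction. The median distance was 432 and 456 kb at scores of at least 7 and 10, 378 kb in the merged calls, 382 kb in all 3 replicates, 428 kb for PIRs with no base in a protein-coding gene, 413 kb for PIRs in no gene and 416 to 418 kb without 1 replicate. The share of CTCF matches pointing at the promoter was 86.7% and 89.2% at the higher scores, 80.7% in the merged calls, 87.1% in all 3 replicates, 83.4% with no base in a protein-coding gene, 84.1% in no gene, 65.2% with a looser consensus and 83.1% to 83.6% without 1 replicate. The cause of these shifts was not tested.

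For the differences, alternatives were chosen after seeing the data. The excess of skipping over pairs not called ranged from 3.75 to 4.49 percentage points and was 3.91 to 4.05 without 1 replicate. The difference from contacts inside another gene ranged from -4.35 to -3.84, and from -4.35 to -4.16 without 1 replicate. With 3 replicates no p under 0.25 was possible. The lack of scores under 5 limits every share of contacts called in several replicates, and the restriction fragment limits the resolution of each position. No paired analysis between groups was possible because there is 1 group.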
